A study of Mus musculus with 12 samples.

Results

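Elastic fibers, adhesive glycoproteins, basement membranes and the enzymes that process and crosslink their neighbors form much of the extracellular matrix around fibroblasts. A set of 43 genes for these proteins was listed by symbol and read in 12 mouse sarcomas, and 40 of them were measured and tested among 16573 genes. They fall into 11 elastic fiber genes, 16 adhesive and matricellular glycoproteins, 8 basement membrane genes and 5 genes of crosslinking and procollagen processing. Fbn1 and Efemp2 were not analysed here, and Loxl2 was left out because its probeset also carries another gene symbol.

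The tumors grew from J2A cells, a myofibroblast line of aortic fibroblasts from C57BL/6 mice deficient for p16, p19 and Vnn1, so all 3 groups lack these genes of their own. VR cells carried a retroviral vector with intact Vnn1 and H-RasV12, VdR cells one with a catalytically deficient Vnn1 and H-RasV12, and R cells one with H-RasV12 and no Vnn1 insert. Vnn1 stood behind the cytomegalovirus promoter, and Ras, fused to GFP, behind an internal ribosome entry site. Cells were grafted under the skin of nude mice, which lack most T cells but keep macrophages and vessels. By the labels, tumors were taken after 2 to 3 weeks according to their growth. The paper's methods instead give a single harvest day for the array tumors, at the end of that range. There were 4 tumors per group, numbered 1, 2, 4 and 5, and all came from 1 parental line, so they replicate the graft and not the transduction. Comparing VR with R asks about Vnn1 as a whole, VdR with R about the protein without its activity, and VR with VdR about the pantetheinase activity.

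In an elastic fiber, an elastin core is laid on a scaffold of fibrillin microfibrils, with fibulins, emilins and microfibril-associated proteins joining the 2 components. Lysyl oxidases then crosslink elastin and collagen, while procollagen C-proteinase enhancers speed the trimming of procollagen. Basement membranes are sheets of laminin and type IV collagen tied together by nidogens and perlecan. Matricellular proteins such as thrombospondins, tenascins and Sparc signal to cells more than they bear load. Myofibroblasts are a main source of many of these proteins in injured tissue and in tumor stroma.

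Values are log2 expression from Affymetrix mouse gene arrays, where a step of 1 is a doubling, and levels of different genes are not compared because each probeset responds differently. Vnn1 itself read 10.87 ± 0.34 in VR tumors, 11.56 ± 0.16 in VdR tumors and 5.70 ± 0.13 in R tumors (SD, n = 4 each), as the labels have it. Every VdR tumor (11.37 to 11.73) read above every VR tumor (10.54 to 11.26). In VR versus VdR, the activity, the Vnn1 level and the separate transductions therefore cannot be told apart. Over all 16573 genes, limma gave 2261 genes above and 1239 below R for VR tumors at an adjusted p under 0.05, 1090 above and 465 below R for VdR tumors, and 293 above and 277 below VdR for VR tumors. Of these calls, the higher ones made up 64.6% in VR versus R, 70.1% in VdR versus R and 51.4% in VR versus VdR, and with arrays centred on the median of the tested genes it was 18.8%, 27.8% and 41%. That centring moved the median of all genes by -0.13 in VR versus R and by -0.11 in VdR versus R, so the split over all genes rests on the scaling. With cyclic loess the share was 56.8%, 55.6% and 55.2%, and with arrays centred over all probesets it was 64.3%, 64.6% and 62.7%. Skeletal muscle markers averaged 8.20 in VR tumor 2, 8.53 and 9.12 in VdR tumors 2 and 4, and 8.95 and 8.30 in R tumors 2 and 5, against 6.52 to 6.64 in the other 7 tumors. Counts are therefore also given for those 7 tumors alone (3 VR, 2 VdR and 2 R).

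Against R tumors, VR tumors had higher RNA for 12 of the 40 matrix genes and lower RNA for 3. Dpt, Pcolce2, Efemp1 and Lama2 were higher by between 2.74- and 5.06-fold, and the other 8 (Thbs3, Mfap4, Fbln5, Emilin2, Nid2, Mfap2, Hspg2 and Pcolce) by 1.29- to 1.75-fold. Thbs1, Loxl3 and Tgfbi were lower. The 15 called genes are 37.5% of the 40, against 21.1% of all genes tested, and the 12 higher genes stand against 13.6% of all genes called higher. The 3 lower genes are about the same share of the 40 as the 7.48% of all genes called lower. The median log2 difference was 0.23 over the 40 genes and -0.015 over all genes, and 31 of the 40 differences were positive, against 7783 of all 16573. Values of the groups did not overlap for 16 of the 40 genes, against 25.8% of all genes. In the 7 tumors with low muscle markers, 10 genes were called higher and 0 lower. How the share called in either direction stands against all genes rests on the scaling. With arrays centred on the tested genes, 7248 of all 16573 genes were called, 1361 higher and 5887 lower. Among the 40, that centring lost Hspg2 (adjusted p = 0.0608) and gained Tnxb as higher (0.047) and Comp as lower (0.0137).

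VdR tumors had higher RNA than R tumors for 8 of the 40 genes, namely Dpt, Efemp1, Pcolce2, Fbln1, Thbs3, Emilin2, Mfap2 and Mfap4, by 1.44- to 2.68-fold. Thbs2, Tgfbi and Loxl3 were lower. The 11 called genes are 27.5% of the 40, against 9.38% of all genes tested, with 6.58% of all genes called higher and 2.81% called lower. All 11 were without overlap between the groups, and no other member was, against 14.2% of all genes. The median log2 difference over the 40 genes was 0.06, against 0.0038 over all genes, and 24 of 40 were positive, against 8477 of all 16573. In the 7 tumors with low muscle markers, 4 were called higher (Emilin2, Mfap2, Efemp1 and Pcolce2) and 3 lower. The lower genes there were Thbs2 (adjusted p = 0.0338), Fbln2 (0.0375) and Nid1 (0.0387), while Tgfbi (0.109) and Loxl3 (0.181) were not called.

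Between VR and VdR tumors, 2 of the 40 genes were called, Fbln5 and Thbs2, both higher in VR by 1.65- and 1.64-fold, and 0 were called lower. They are 5% of the 40 genes, against 3.44% of all genes called, 1.77% of them higher and 1.67% lower. The median log2 difference over the 40 was 0.18, against -0.018 over all genes, and 33 of 40 differences were positive, against 7229 of all 16573. Groups did not overlap for 7 genes, against 12.6% of all genes. These were Fbln5, Thbs2, Lama2, Mfap5, Cthrc1, Vcan and Postn. In the 7 tumors with low muscle markers, 0 members and 7 genes in all were called. VR and VdR were both set against the same 4 R tumors, so the first 2 comparisons are not independent of each other.

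**Figure D1:**
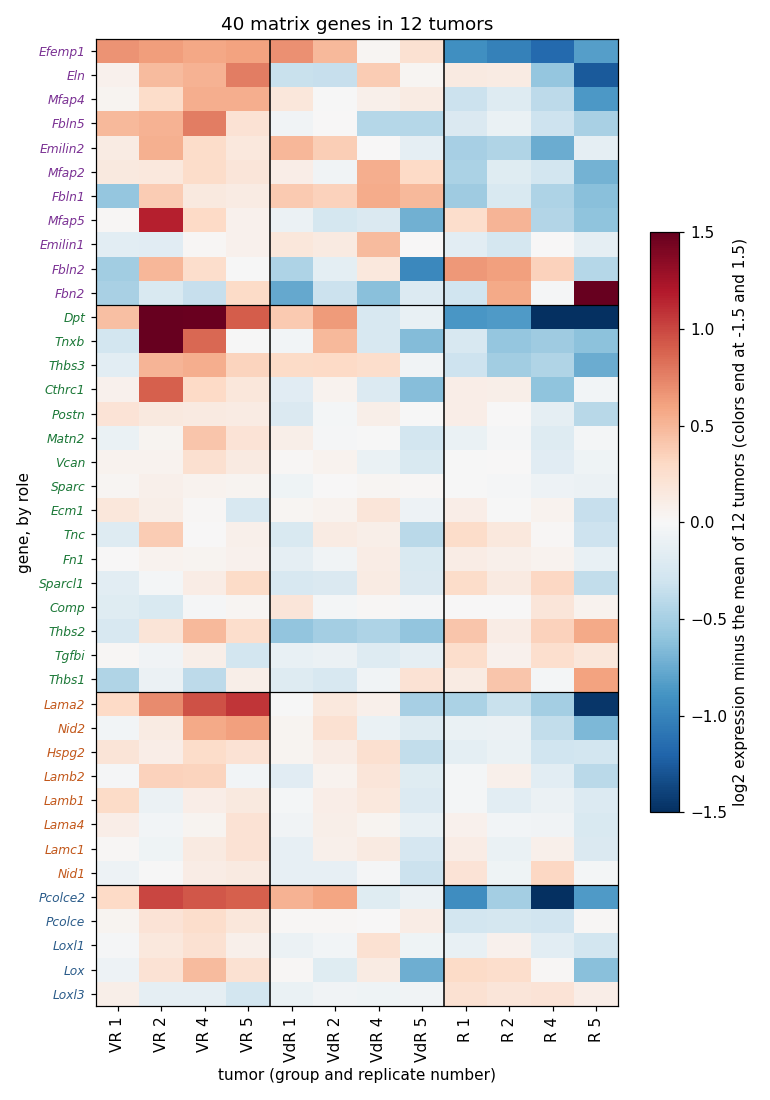
Expression of 40 matrix genes (rows, grouped by role and sorted by the VR minus R difference) in 12 tumors (columns), as log2 expression minus the gene's mean over the 12 tumors. Because of this sorting, the genes at the top of each role are mostly red in VR tumors and blue in R tumors. For these genes VdR tumors lie mostly between them, and Dpt shows the widest step, with a log2 difference of 2.34 between VR and R.

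By the order of the group means, 20 of the 40 genes ran from VR through VdR down to R, among them Eln, Efemp1, Dpt, Lama2, Hspg2 and Pcolce2. Another 7 were highest in VR and lowest in VdR (Mfap5, Fn1, Tnc, Vcan, Cthrc1, Lamc1 and Lox), and 4 were highest in VdR (Emilin1, Mfap2, Fbln1 and Ecm1). R tumors had the highest mean for 9 genes, with VdR lowest in 6 of them (Fbn2, Fbln2, Thbs2, Sparcl1, Tgfbi and Nid1) and VR lowest in 3 (Thbs1, Comp and Loxl3). Most neighboring means in these orders did not pass the test, so the orders are descriptions.

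The starts of 4 genes with large called differences are shown here, 3 that were higher in both Vnn1 groups than in R and Thbs2, which was lower in VdR only. Each window runs from 250 bases before to 50 bases after the start of transcription and comes from RefSeq on GRCm38.p6. They lie at chr1:164796413-164796712 on the plus strand (Dpt), chr11:28852955-28853254 on the plus strand (Efemp1), chr9:95637378-95637677 on the plus strand (Pcolce2) and chr17:14694213-14694512 on the minus strand (Thbs2). Capitals mark a match, on either strand, to the TATA box TATAAA, the hypoxia response core in the forms ACGTG and GCGTG, the AP-1 motif TGANTCA or the SMAD core CAGAC.
Dpt: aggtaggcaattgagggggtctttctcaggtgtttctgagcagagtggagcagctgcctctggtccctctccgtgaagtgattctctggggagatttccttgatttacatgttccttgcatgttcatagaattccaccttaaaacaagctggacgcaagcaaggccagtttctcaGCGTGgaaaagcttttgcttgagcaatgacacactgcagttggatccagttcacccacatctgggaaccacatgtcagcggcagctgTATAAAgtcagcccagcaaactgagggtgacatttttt
Efemp1: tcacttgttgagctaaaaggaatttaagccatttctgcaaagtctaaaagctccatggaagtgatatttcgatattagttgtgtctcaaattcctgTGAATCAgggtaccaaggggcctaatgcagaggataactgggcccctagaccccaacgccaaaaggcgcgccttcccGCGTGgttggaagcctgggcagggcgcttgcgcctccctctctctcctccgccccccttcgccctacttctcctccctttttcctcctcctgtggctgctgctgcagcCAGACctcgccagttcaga
Pcolce2: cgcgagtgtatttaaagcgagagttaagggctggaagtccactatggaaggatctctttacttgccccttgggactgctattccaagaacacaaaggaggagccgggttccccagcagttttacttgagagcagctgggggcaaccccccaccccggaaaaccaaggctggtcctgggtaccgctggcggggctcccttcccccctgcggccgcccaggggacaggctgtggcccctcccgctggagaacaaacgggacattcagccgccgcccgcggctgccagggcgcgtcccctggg
Thbs2: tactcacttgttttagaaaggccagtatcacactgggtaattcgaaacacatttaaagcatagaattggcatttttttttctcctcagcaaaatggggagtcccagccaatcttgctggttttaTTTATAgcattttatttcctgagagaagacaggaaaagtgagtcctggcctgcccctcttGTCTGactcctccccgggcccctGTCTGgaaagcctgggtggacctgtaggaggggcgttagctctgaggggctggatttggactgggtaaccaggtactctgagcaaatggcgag

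Dpt held a TATA match and a GCGTG match, Efemp1 an AP-1, a GCGTG and a SMAD match, and Thbs2 a TATA match and 2 SMAD matches, while Pcolce2 held none of the letters searched. Of the 40 members, 24 were matched in the promoter table, with 30 windows. TATAAA stood in 20% of these windows and in 13.6% of all 32851 windows of that length, and CAGAC in 66.7% and 49.6%. The share was 40% of member windows and 32.4% of all windows for GCGTG, 10% and 19.6% for ACGTG, and 10% and 7.81% for TGANTCA. These are letter matches only, and no binding was measured.

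Against R tumors, 5 of the 11 elastic fiber genes were higher in VR and 5 in VdR, and 1 was higher in VR than in VdR, with 0 called lower in any of these comparisons. Of the 11, 45.45% were called in each comparison with R, against 21.1% of all genes in VR and 9.38% in VdR. The share in VR versus VdR was 9.09%, against 3.44% of all genes. Efemp1, a secreted fibulin of vessel and skin matrix, had the smallest adjusted p of all 40 genes. It read 11.79, 11.75, 11.69 and 11.72 in VR tumors 1, 2, 4 and 5, 11.80, 11.61, 11.15 and 11.35 in VdR tumors, and 10.20, 10.11, 9.96 and 10.30 in R tumors. Both Vnn1 groups lay wholly above R and overlapped with each other. The log2 difference was 1.60 in VR versus R (SE 0.12, adjusted p = 4.64e-05), 1.34 in VdR versus R (adjusted p = 9.34e-05) and 0.26 in VR versus VdR (adjusted p = 0.259).

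Fbln5, a fibulin that binds tropoelastin and integrins and is needed for elastic fiber assembly, was the elastic fiber gene that set VR apart from both other groups. Its values were 9.25, 9.29, 9.53 and 8.98 in VR tumors, 8.71, 8.77, 8.34 and 8.33 in VdR tumors, and 8.55, 8.67, 8.46 and 8.27 in R tumors. Every VR tumor exceeded every VdR and R tumor, whereas VdR and R values ran through each other. The log2 difference was 0.78 in VR versus R (SE 0.13, adjusted p = 0.00192), 0.72 in VR versus VdR (SE 0.13, adjusted p = 0.0183) and 0.05 in VdR versus R (adjusted p = 0.867). The call between VR and VdR was lost without VdR tumor 4 (adjusted p = 0.0527), VR tumor 2 (0.0505) or VR tumor 4 (0.0595).

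Fbln1, another fibulin, of elastic fibers and basement membranes, ran differently. It read 9.34, 10.30, 10.07 and 10.04 in VR tumors, 10.31, 10.27, 10.48 and 10.41 in VdR tumors, and 9.38, 9.69, 9.45 and 9.29 in R tumors. VdR values lay above all R values, and VR values spanned both, with VR tumor 1 at the level of R. The difference was 0.91 in VdR versus R (SE 0.17, adjusted p = 0.00467) and 0.48 in VR versus R (adjusted p = 0.0567), and leaving out VR tumor 1 gave 0.68 with an adjusted p of 0.00126 for VR versus R (0.0443 without R tumor 2). VdR minus R was 0.94 (adjusted p = 0.0518) in the 7 tumors with low muscle markers. VR minus VdR was -0.43 (95% interval -0.79 to -0.07, adjusted p = 0.177).

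The remaining called elastic fiber genes were higher in both VR and VdR than in R. Emilin2, a glycoprotein of the elastin and microfibril interface, read 8.86, 9.27, 9.01 and 8.90 in VR tumors, 9.23, 9.11, 8.74 and 8.61 in VdR tumors, and 8.24, 8.29, 7.99 and 8.61 in R tumors. R tumor 5 sat at the lowest VdR value to the second decimal. Differences were 0.73 in VR versus R (adjusted p = 0.00628) and 0.64 in VdR versus R (adjusted p = 0.0221). The VdR call was lost without R tumor 1 (0.0606), R tumor 4 (0.0712), VdR tumor 1 (0.066) or VdR tumor 2 (0.0741), and with the methods' t-test (0.15).

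Mfap2, a small microfibril protein that binds fibrillin, read 10.94, 10.96, 11.07 and 10.98 in VR tumors, 10.90, 10.74, 11.35 and 11.10 in VdR tumors, and 10.32, 10.62, 10.53 and 10.09 in R tumors. VR and VdR were alike in their means, and both lay wholly above R. The differences from R were 0.60 in VR (adjusted p = 0.00666) and 0.63 in VdR (adjusted p = 0.00889), and VR minus VdR was -0.03 with a 95% interval of -0.31 to 0.25. Mfap4, a fibrinogen-domain protein that binds elastin and collagen, read 9.65, 9.88, 10.15 and 10.15 in VR tumors, 9.78, 9.61, 9.68 and 9.73 in VdR tumors, and 9.29, 9.42, 9.22 and 8.74 in R tumors. No R tumor reached a VR or VdR value. The difference was 0.79 in VR versus R (adjusted p = 0.00233) and 0.53 in VdR versus R (adjusted p = 0.035), and the VdR call was lost in 11 of 24 alternatives. It ended in the 7 tumors with low muscle markers (0.124), with cyclic loess (0.0695) and with centring on the tested genes (0.0693), when any VdR tumor was left out (adjusted p 0.0627 to 0.0881) and without R tumor 1 (0.0568) or R tumor 4 (0.0714).

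The other elastic fiber genes were not called in any comparison, and Fbn1, another fibrillin gene, was not analysed. Eln, which encodes tropoelastin, ranged from 9.60 to 10.30 in VR tumors, 9.19 to 9.91 in VdR tumors and 8.27 to 9.67 in R tumors, and VR minus R was 0.85 (95% interval 0.23 to 1.47, adjusted p = 0.0508). That p fell under 0.05 without R tumor 1 (0.0331), R tumor 2 (0.0282), VR tumor 1 (0.0433) or VdR tumor 4 (0.047). Fbn2, a microfibril fibrillin of developing tissue, had an R group of 7.95, 8.82, 8.23 and 10.67, with tumor 5 far above the others, and VR minus R was -0.86 (adjusted p = 0.198). Without that tumor the difference was -0.28 (adjusted p = 0.387), and in the 7 tumors with low muscle markers it was -0.02 (adjusted p = 0.956). Emilin1, an emilin of vessel walls, differed by 0.33 in VdR versus R (adjusted p = 0.0539) and by 0.08 in VR versus R (adjusted p = 0.588). Mfap5, a microfibril protein, differed by 0.45 in VR versus R (adjusted p = 0.275), and its VR minus VdR difference was 0.70 without overlap (adjusted p = 0.198). Fbln2, a fibulin of basement membranes and vessels, differed by -0.24 in VR versus R (adjusted p = 0.568) and -0.66 in VdR versus R (adjusted p = 0.194), and the VdR difference was -1.21 (adjusted p = 0.0375) in the 7 tumors with low muscle markers.

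**Figure D2:**
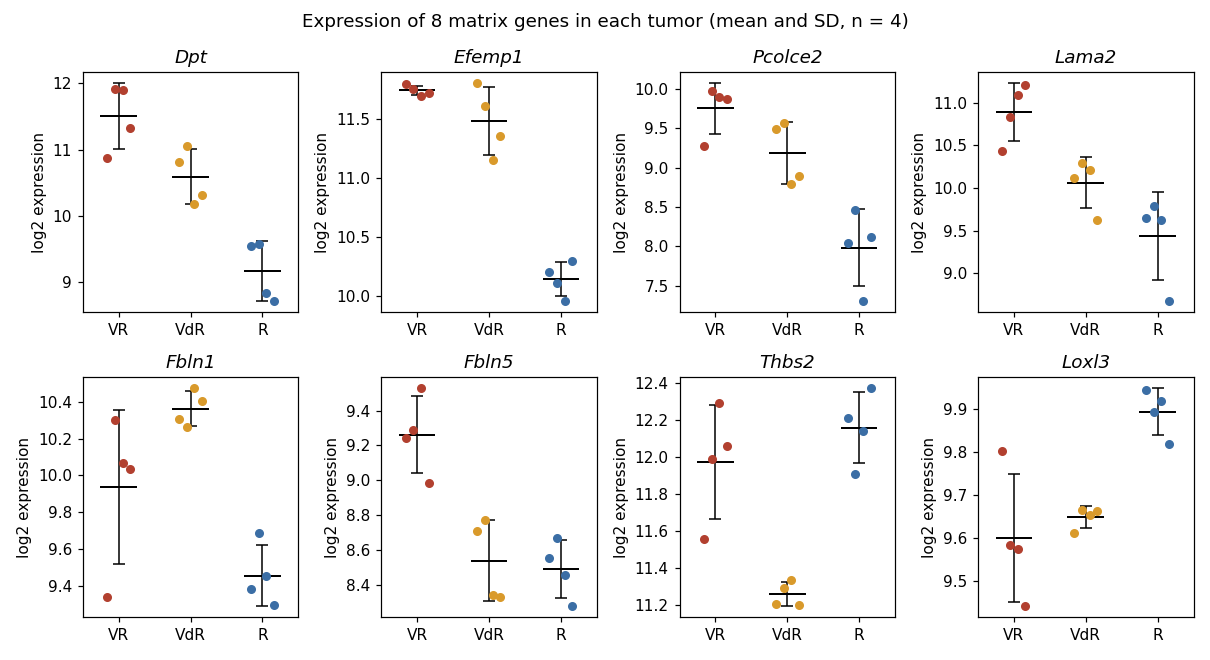
log2 expression of 8 matrix genes in each of 4 VR, 4 VdR and 4 R tumors (points), with the group mean (line) and SD (bar). Each panel has its own axis. Dpt, Efemp1 and Pcolce2 are higher in VR and VdR than in R, Fbln5 and Lama2 are highest in VR, Thbs2 is lowest in VdR, and Loxl3 is lower in VR and VdR than in R.

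Among the 16 adhesive and matricellular glycoproteins, VR tumors had 2 called above and 2 below R, VdR tumors had 2 above and 2 below R, and 1 was higher in VR than in VdR. The 4 called in VR versus R are 25% of the 16, near the 21.1% of all genes, and the 1 called in VR versus VdR is 6.25%, against 3.44% of all genes. The median log2 differences were 0.08 in VR versus R, -0.015 in VdR versus R and 0.18 in VR versus VdR. Dpt encodes dermatopontin, a small protein that binds decorin and promotes collagen fibril formation. It read 10.87, 11.91, 11.90 and 11.33 in VR tumors, 10.81, 11.06, 10.18 and 10.31 in VdR tumors, and 9.55, 9.57, 8.83 and 8.72 in R tumors. Both Vnn1 groups were clear of R, and VR tumor 1 fell within the VdR range. The difference was 2.34 in VR versus R (SE 0.28, adjusted p = 0.00024), 1.42 in VdR versus R (SE 0.28, adjusted p = 0.0072) and 0.91 in VR versus VdR (95% interval 0.31 to 1.52, adjusted p = 0.0935, or 0.0451 without VR tumor 1). In the 7 tumors with low muscle markers, VR minus R was 2.18 (adjusted p = 0.00563) and VdR minus R was 1.37 (adjusted p = 0.0645).

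Thbs1, Thbs2 and Thbs3, which encode thrombospondins, went separate ways. Thbs3, which belongs to the pentamer-forming subgroup, read 8.49, 9.16, 9.20 and 8.99 in VR tumors, 8.94, 8.95, 8.91 and 8.60 in VdR tumors, and 8.34, 8.13, 8.20 and 7.91 in R tumors. All VR and VdR tumors exceeded all R tumors. The difference was 0.81 in VR versus R (SE 0.15, adjusted p = 0.00249) and 0.70 in VdR versus R (adjusted p = 0.01), and in the 7 tumors with low muscle markers it was 0.62 (adjusted p = 0.0716) and 0.50 (adjusted p = 0.23).

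Thbs2, an inhibitor of angiogenesis, was low in VdR tumors alone. It read 11.56, 11.99, 12.29 and 12.06 in VR tumors, 11.21, 11.29, 11.34 and 11.20 in VdR tumors, and 12.21, 11.91, 12.14 and 12.37 in R tumors. VdR values lay below every VR and every R value, and VR and R overlapped. The difference was -0.90 in VdR versus R (SE 0.13, adjusted p = 0.00146), 0.71 in VR versus VdR (SE 0.13, adjusted p = 0.0195) and -0.18 in VR versus R (95% interval -0.47 to 0.11, adjusted p = 0.345). The call in VR versus VdR was lost without VdR tumor 5 (0.0527), VR tumor 2 (0.0532) or VR tumor 4 (0.0593), and the call in VdR versus R held in all 24 alternatives.

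Thbs1, an activator of latent TGF-beta and an angiogenesis inhibitor, ranged from 10.35 to 10.90 in VR tumors, 10.57 to 11.02 in VdR tumors and 10.78 to 11.41 in R tumors. VR and R overlapped, the difference was -0.49 (adjusted p = 0.0424), and the call was lost in 12 of 24 alternatives. The difference was -0.30 (adjusted p = 0.275) in the 7 tumors with low muscle markers, and the methods' t-test gave an adjusted p of 0.139. Leaving out 1 tumor, the adjusted p reached 0.111 without VR tumor 4, 0.107 without VR tumor 1, 0.0976 without R tumor 5 and 0.0915 without R tumor 2. It was also lost, at 0.0516 to 0.0587, without R tumor 1, VR tumor 2, VdR tumor 1 or VdR tumor 4. VdR minus R was -0.35 (adjusted p = 0.203). Comp, a cartilage thrombospondin, differed by -0.16 in VR versus R (adjusted p = 0.136).

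Tgfbi, a TGF-beta-induced protein that links collagens and integrins, read 12.80, 12.72, 12.86 and 12.50 in VR tumors, 12.67, 12.68, 12.58 and 12.64 in VdR tumors, and 13.04, 12.84, 13.02 and 12.95 in R tumors. VdR values all lay below R, and the highest VR value passed the lowest R value. The difference was -0.25 in VR versus R (adjusted p = 0.038) and -0.32 in VdR versus R (adjusted p = 0.0204). The VR call was lost without R tumor 1 (0.102), R tumor 4 (0.0986), R tumor 5 (0.0566), VR tumor 2 (0.0765) or VR tumor 5 (0.0843), and the VdR call without R tumor 1 (0.0667), R tumor 4 (0.0629) or VdR tumor 4 (0.0514).

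The other 11 glycoproteins were not called in any comparison. Fn1 (fibronectin), Tnc (tenascin-C), Ecm1 and Sparcl1 had VR minus R differences of 0.01, 0.04, 0.06 and -0.04, with 95% intervals within -0.36 to 0.37. Sparc, a collagen-binding matricellular protein, differed by 0.10 in VR versus R (adjusted p = 0.146), and Vcan, the proteoglycan versican, by 0.18 (adjusted p = 0.0949), each without overlap. Postn, the periostin gene of fibrotic matrix, differed by 0.26 without overlap (adjusted p = 0.0779, or 0.0371 without R tumor 1). Cthrc1, a secreted protein of activated fibroblasts, differed by 0.47 in VR versus R (adjusted p = 0.123) and 0.60 in VR versus VdR (adjusted p = 0.129), and Matn2, a filament-forming matrilin, by 0.23 (adjusted p = 0.153) and 0.20 (adjusted p = 0.35). Tnxb, the tenascin that spaces collagen fibrils, read 6.76, 8.85, 7.89 and 7.03 in VR tumors against 6.41 to 6.79 in R tumors. Its difference of 1.09 (SE 0.38, adjusted p = 0.057) rested on unequal VR values, with an adjusted p of 0.02 without VR tumor 1, 0.041 without VR tumor 5, and a difference of 0.69 without VR tumor 2.

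**Figure D3:**
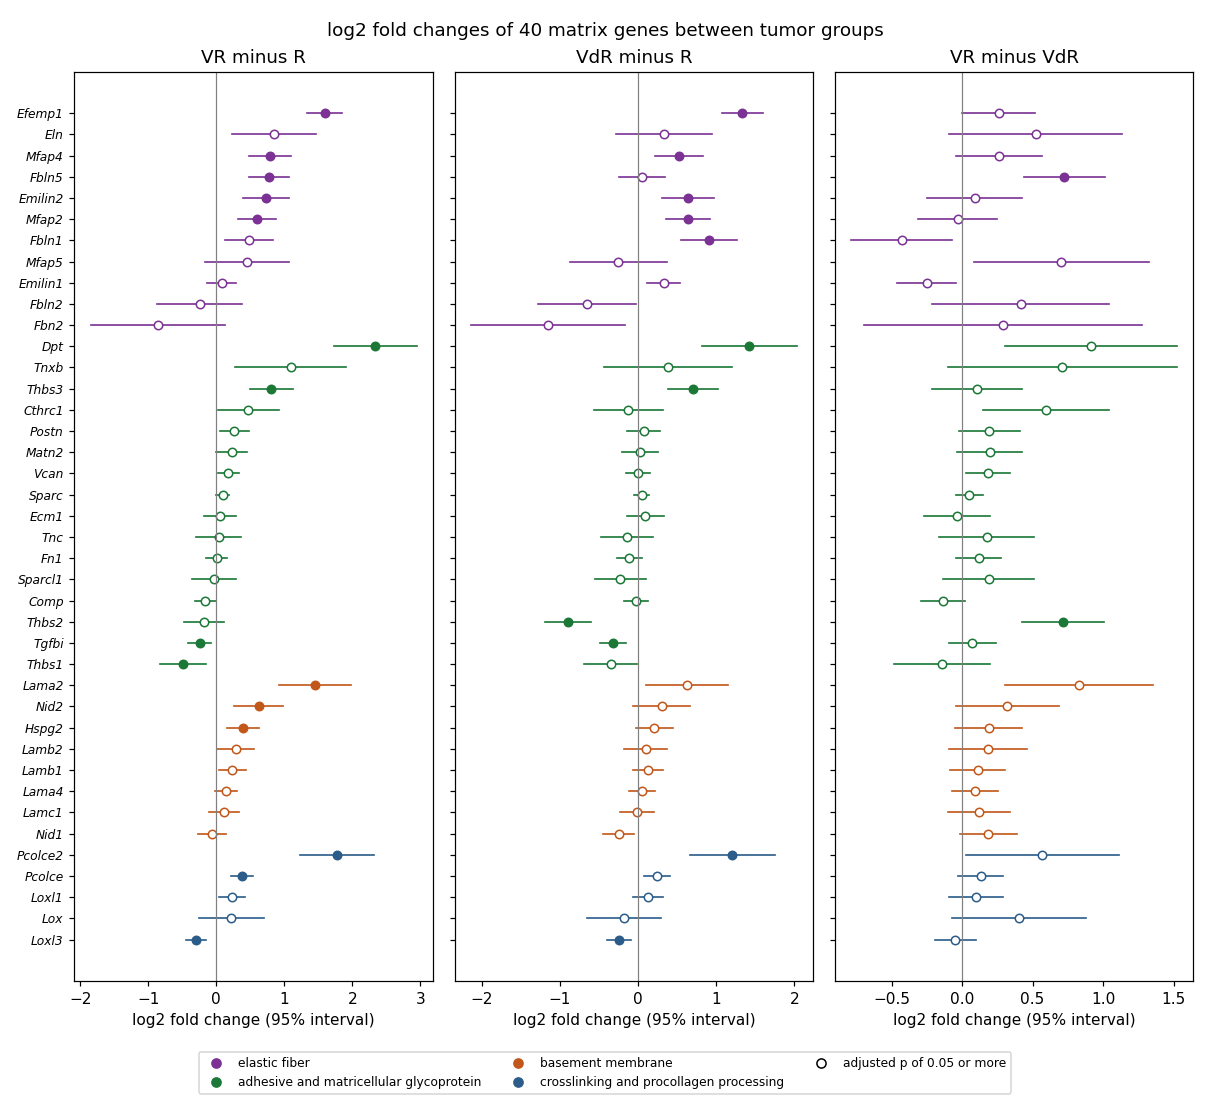
log2 fold changes of 40 matrix genes in VR minus R, VdR minus R and VR minus VdR tumors (panels, each with its own axis), with points at the limma estimate and lines for its 95% interval. Filled points have an adjusted p under 0.05, which holds for 15, 11 and 2 genes in the panels from left to right.

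Of the 8 basement membrane genes, 3 were called in VR versus R, all higher, which is 37.5% against 21.1% of all genes. In VdR versus R and in VR versus VdR 0 of 8 were called by limma, where 9.38% and 3.44% of all genes were. All 8 differences in VR versus VdR were positive, from 0.09 to 0.83 (median 0.18), against 7229 positive of all 16573 genes, and 0 of 8 passed limma's threshold. Lama2 encodes the laminin alpha chain of muscle and nerve basement membranes. It read 10.43, 10.83, 11.09 and 11.20 in VR tumors, 10.12, 10.29, 10.21 and 9.63 in VdR tumors, and 9.65, 9.79, 9.62 and 8.67 in R tumors. VR values stood above all others, and VdR and R overlapped. The difference was 1.45 in VR versus R (SE 0.24, adjusted p = 0.00159), 0.63 in VdR versus R (adjusted p = 0.137) and 0.83 in VR versus VdR (adjusted p = 0.0809). The last of these reached an adjusted p of 0.0265 without R tumor 5, the lowest of the R tumors. In the 7 tumors with low muscle markers, VR minus R was 1.27 (adjusted p = 0.0123).

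Nid2, a nidogen that bridges laminin and type IV collagen, read 9.37, 9.54, 9.98 and 10.03 in VR tumors, 9.46, 9.64, 9.31 and 9.22 in VdR tumors, and 9.31, 9.33, 9.04 and 8.74 in R tumors. VR cleared R narrowly and overlapped with VdR. The difference in VR versus R was 0.62 (SE 0.17, adjusted p = 0.0199). It was no longer called without R tumor 4 (0.0536), VR tumor 4 (0.0622) or VR tumor 5 (0.0562), with the methods' t-test (0.108), or in the 7 tumors with low muscle markers (0.0754). Its paralog Nid1 gave -0.06 (adjusted p = 0.638) in VR versus R and -0.25 (adjusted p = 0.121) in VdR versus R, and the VdR difference was -0.47 (adjusted p = 0.0387) in those 7 tumors. Hspg2, the perlecan gene, ranged from 11.69 to 11.86 in VR tumors, 11.22 to 11.84 in VdR tumors and 11.30 to 11.49 in R tumors. Its VR minus R difference of 0.40 (adjusted p = 0.0213) lost its call without R tumor 4 (0.0625) or VR tumor 4 (0.0599), and with centring on the tested genes (0.0608). Lamb1, Lamb2, Lama4 and Lamc1, other laminin chains, had VR minus R differences of 0.24, 0.28, 0.15 and 0.11, and none was called (adjusted p 0.0833 to 0.451).

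In crosslinking and procollagen processing, VR tumors had 2 of 5 genes above and 1 below R, VdR tumors had 1 above and 1 below R, and 0 were called in VR versus VdR. With only 5 genes, these are 60% called in VR versus R and 40% in VdR versus R, against 21.1% and 9.38% of all genes. In VR versus VdR, 3.44% of all genes were called. The higher genes were both procollagen C-proteinase enhancers. Pcolce2 read 9.28, 9.98, 9.90 and 9.87 in VR tumors, 9.50, 9.57, 8.80 and 8.89 in VdR tumors, and 8.04, 8.47, 7.30 and 8.12 in R tumors. No R tumor reached the lowest VdR or VR value. The difference was 1.78 in VR versus R (SE 0.25, adjusted p = 0.000645), 1.21 in VdR versus R (adjusted p = 0.0099) and 0.57 in VR versus VdR (adjusted p = 0.24).

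Pcolce, the other enhancer, read 12.48, 12.64, 12.70 and 12.61 in VR tumors, 12.45, 12.45, 12.45 and 12.55 in VdR tumors, and 12.16, 12.17, 12.15 and 12.46 in R tumors. R tumor 5 reached the VdR values and fell just short of the VR values. The difference was 0.37 in VR versus R (SE 0.07, adjusted p = 0.00455) and 0.24 in VdR versus R (adjusted p = 0.0647, or 0.007 without R tumor 5).

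Of the 3 lysyl oxidases measured among the members, Loxl3 was called lower and Lox and Loxl1 were not called. Loxl3 read 9.80, 9.58, 9.57 and 9.44 in VR tumors, 9.61, 9.67, 9.65 and 9.66 in VdR tumors, and 9.94, 9.89, 9.92 and 9.82 in R tumors. Its R values lay above all others by small steps. The difference was -0.29 in VR versus R (SE 0.07, adjusted p = 0.00966) and -0.24 in VdR versus R (adjusted p = 0.0417), and the VR call was lost in the 7 tumors with low muscle markers (0.0696) and with the methods' t-test (0.0635). The VdR call was lost in 10 of 24 alternatives, among them leaving out any VdR tumor, R tumor 1, 2 or 4, or VR tumor 2 or 4 (adjusted p 0.0554 to 0.116). Lox, the enzyme that crosslinks elastin and collagen, differed by 0.22 in VR versus R (adjusted p = 0.482), and Loxl1, which is tied to elastic fiber upkeep, by 0.23 (adjusted p = 0.0835, or 0.0365 without R tumor 2 and 0.0478 without VdR tumor 4).

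Averaged over the genes of a role, the elastic fiber genes read 9.53 to 9.93 in VR tumors, 9.43 to 9.63 in VdR tumors and 9.18 to 9.49 in R tumors. The 5 crosslinking and processing genes read 10.60 to 10.88 in VR tumors, 10.37 to 10.61 in VdR tumors and 10.15 to 10.48 in R tumors, and the basement membrane genes read 10.99 to 11.22 in VR tumors, 10.63 to 10.99 in VdR tumors and 10.46 to 10.85 in R tumors. VR tumors were clear of R tumors in these 3 roles. The 16 glycoproteins averaged 10.89 to 11.27 in VR tumors, 10.73 to 10.97 in VdR tumors and 10.72 to 10.95 in R tumors, and there all groups overlapped.

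Markers of cell types were read in the same tumors. The 14 macrophage markers averaged 9.99 to 10.15 in VR tumors, 10.11 to 10.39 in VdR tumors and 9.11 to 9.38 in R tumors, with 11 called higher in VR and 13 in VdR than in R and 0 called between VR and VdR. The calls against R are 78.57% of the list in VR and 92.86% in VdR, against 21.1% and 9.38% of all genes. Between VR and VdR, 3.44% of all genes were called. Of the defining genes, Adgre1 averaged 10.67 in VR, 10.77 in VdR and 9.22 in R tumors, and Csf1r 11.43 in VR, 11.58 in VdR and 10.27 in R tumors. The 11 myofibroblast and fibroblast markers averaged 11.11 to 11.37 in VR tumors, 10.90 to 11.13 in VdR tumors and 10.73 to 11.16 in R tumors, with 6 called higher in VR than in R, 1 in VdR than in R and 1 in VR than in VdR. These are 54.55%, 9.09% and 9.09% of the list, against 21.1%, 9.38% and 3.44% of all genes. The 6 were Pdgfrb, Pdgfra, Thy1 and the matrix collagen genes Col1a1, Col1a2 and Col3a1. The tumor cells are themselves a myofibroblast line, so this list does not mark other cells. Among the contractile markers of myofibroblasts, Acta2 averaged 12.11 in VR, 11.96 in VdR and 11.91 in R tumors, Tagln 8.02 in VR, 7.95 in VdR and 7.88 in R tumors, and Cnn1 7.26 in VR, 7.26 in VdR and 7.81 in R tumors, and none of these 3 was called.

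The 12 endothelial markers averaged 9.19 to 9.56 in VR tumors, 8.84 to 9.15 in VdR tumors and 8.70 to 9.27 in R tumors, with 3 called higher in VR than in R, 0 in VdR than in R and 2 in VR than in VdR. These are 25%, 0% and 16.67% of the list, against 21.1%, 9.38% and 3.44% of all genes. The share in VR versus R is near that of all genes. The 6 pericyte markers averaged 8.72 to 9.52 in VR tumors, 8.54 to 9.00 in VdR tumors and 8.69 to 9.33 in R tumors. In VR versus R, 3 were positive and 3 negative, from -0.40 to 0.52, and in VdR versus R 1 was positive and 5 negative. Of these markers, Rgs5 was called lower in VR and in VdR than in R and higher in VR than in VdR. It is 16.67% of the list in each comparison. Of 7 adipocyte and 10 skeletal muscle markers, 0 were called in any comparison. The part of these cells in the matrix results was not tested. In bulk tumor RNA, fewer cells of a type and less RNA per cell cannot be told apart.

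**Figure D4:**
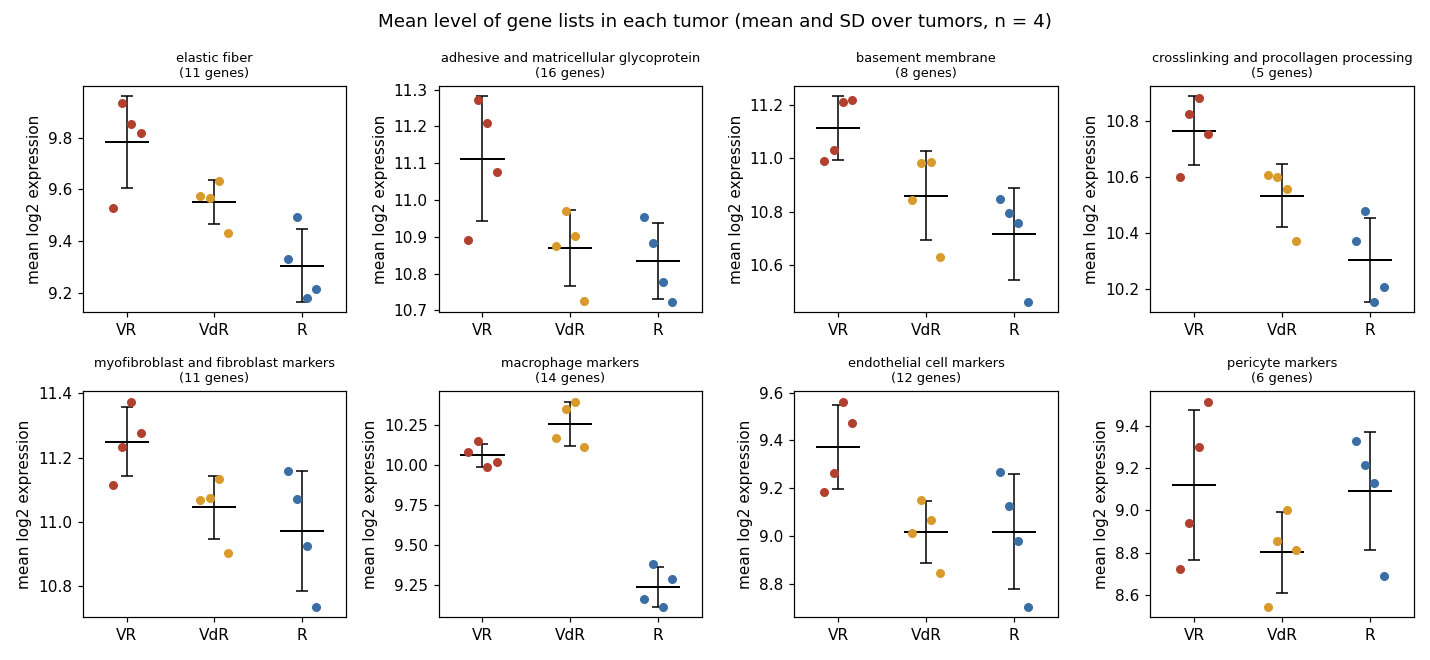
Mean log2 expression of the genes of each role (upper row) and of 4 marker lists (lower row) in each of 4 VR, 4 VdR and 4 R tumors (points), with group mean and SD; axes differ between panels. Elastic fiber genes are lowest in R tumors, at 9.18 to 9.49, and macrophage markers likewise, at 9.11 to 9.38, while fibroblast and endothelial markers have their highest means in VR tumors.

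Other genes of the same structures were examined from a list of 84, of which 78 were tested. In VR versus R, 25 were called higher and 3 lower, 35.9% in all, against 21.1% of all genes. In VdR versus R, 4 were called higher and 1 lower, 6.41% against 9.38% of all genes, so this share lay under that of all genes. In VR versus VdR, 4 were higher and 0 lower, 5.13% against 3.44% of all genes. By role, 4 of 11 further elastic fiber genes, 11 of 26 glycoproteins, 5 of 22 basement membrane genes and 5 of 19 crosslinking and processing genes passed the test with VR above R. In VdR versus R these counts were 0, 2, 0 and 2.

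Among elastic fiber genes, Mfap3, Ltbp1 (a latent TGF-beta binding protein of microfibrils), Fbln7 and Adamts10 were higher in VR than in R by 0.22, 0.25, 0.93 and 0.54 on the log2 scale. Among glycoproteins, Srpx, a sushi-repeat protein, ranged from 8.65 to 9.42 in VR tumors, 7.52 to 8.58 in VdR tumors and 6.54 to 7.29 in R tumors. No values were shared between the groups, and all comparisons were called, at 2.11 in VR versus R (adjusted p = 0.0002), 1.08 in VdR versus R (0.0151) and 1.03 in VR versus VdR (0.041). Its relative Srpx2 differed by 1.32 in VR versus R (adjusted p = 0.000864) and 1.05 in VR versus VdR (0.0188), and Tnn, a tenascin, by 0.69 (0.00431) and 0.66 (0.028). Thbs4 was higher than in R by 0.75 in VR (0.00272) and 0.62 in VdR (0.0148).

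Among basement membrane genes, the laminin chain Lama5 was lower than in R, with a difference of -1.63 in VR versus R (adjusted p = 0.00156) and of -1.08 in VdR versus R (0.026), opposite in sign to Lama2. It ranged from 7.53 to 8.03 in VR tumors, 8.02 to 9.08 in VdR tumors and 8.71 to 9.79 in R tumors. Col4a6, Col4a5 and Lama3 were higher in VR than in R by 0.67, 0.51 and 0.31. In crosslinking and processing, Adamts14, a procollagen N-proteinase, was higher in VR than in R by 0.30 (0.00797), Crtap of the prolyl hydroxylation complex by 0.23 (0.0131), Leprel1 (P3h2), a collagen prolyl hydroxylase, by 1.32 (0.0142), and Loxl4 by 0.49 (0.0297). Crtap and Loxl4 were also higher in VdR than in R, by 0.26 (0.013) and 0.54 (0.0326).

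**Figure D5:**
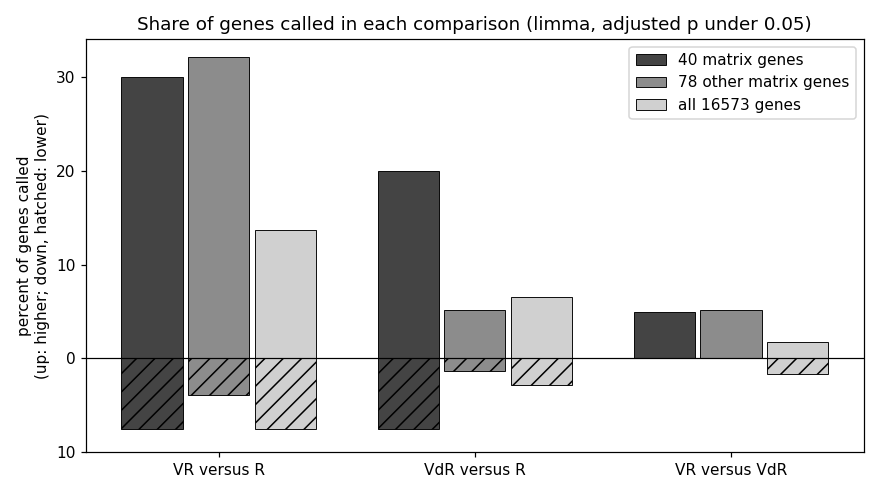
Percent of genes called by limma at an adjusted p under 0.05, higher (bars above 0) or lower (hatched bars below 0), among the 40 matrix genes, 78 other matrix genes and all 16573 genes tested, in each comparison. Of the 40 genes, 37.5%, 27.5% and 5% were called in the comparisons from left to right, against 21.1%, 9.38% and 3.44% of all genes. With arrays centred on the tested genes (not drawn), 7248 of the 16573 genes were called in VR versus R.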

How the data were processed

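RNA of 12 J2A tumors was hybridised to Affymetrix mouse gene arrays. The paper describes RNA of the whole tumor mass, while the extraction label speaks of sorted cells. The authors deposited log2 expression values per probeset, normalized together by RMA in oligo (versions not given in the sources used here), so an overall change in RNA content between groups is hidden. The platform annotation gave 1 symbol to 21789 of 35556 probesets, several to 1621 and no symbol to 12146. For each gene the 1-symbol probeset with the highest mean was used, and genes above 5.38 (25th percentile) in at least 4 arrays were tested. Groups and tumor numbers came from the labels.

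The 3 comparisons came from a single limma 3.58.1 fit of all 12 arrays (lmFit and eBayes, R 4.3.3) with a coefficient for each group. Benjamini-Hochberg adjustment ran over 16573 genes, with calls under 0.05. Intervals are limma's 95% intervals. Pairs of arrays within a group correlated across genes at 0.988 to 0.996. P-values measure the spread between tumors of 1 line, and the number of arrays limits the precision. The matrix genes, the further lists, the markers and the rule for printing values were chosen with earlier results of these data known. Values in every tumor were printed for called members whose groups do not overlap, up to the 8 largest changes per direction and comparison, and for the 2 members of each role with the lowest adjusted p in VR versus R. Of each further list, up to 4 called genes with the lowest adjusted p in VR versus R were named. Alternatives were other filters, the mean of probesets, trended and robust moderation, array weights, other scalings, the replicate block, only the groups compared, the methods' t-test (named there for qRT-PCR), a minimum of 1.5-fold and leaving out each tumor. Centring over all probesets and keeping only tumors whose mean muscle marker level was under 7.5 were added after seeing the data. The fit was tested on simulated data.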

Additional observations from a re-analysis of the deposited data

Results flagged for a closer look

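Of 120 groups of 4 tumors (40 genes in 3 groups), 7 held a tumor set apart from the other 3 by a gap, relative to the range, above Dixon's 95% critical value, where chance gives about 5% of groups. In VR tumors, Pcolce2 was low in tumor 1, at 9.28 against 9.87 to 9.98 in the others. In VdR tumors, Thbs3 was low in tumor 5, at 8.60 against 8.91 to 8.95, and Pcolce was high in that tumor, at 12.55 against 12.45. Sparcl1 and Loxl1 were both high in VdR tumor 4, at 12.33 against 11.96 to 11.99 and at 10.89 against 10.58 to 10.62. In R tumors, Lama2 was low in tumor 5, at 8.67 against 9.62 to 9.79, and Pcolce was high there, at 12.46 against 12.15 to 12.17.

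The difference from R differed between VR and VdR tumors for Fbln5 and Thbs2, by 0.72 (adjusted p = 0.0183) and 0.71 (adjusted p = 0.0195) on the log2 scale in limma's direct comparison. Fbln5 was above R in VR tumors alone, and Thbs2 was below R in VdR tumors alone.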

How the results depend on the processing

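Calls of single members were followed over 24 alternatives, which leave out the 1.5-fold minimum. Not all of these could move a member's difference. Each tested member had 1 probeset, so the mean of probesets left its values as they were. Leaving out a tumor of the group not compared changed the estimate of spread and the adjusted p, but not the difference. Of the 15 members called in VR versus R, 9 kept their call in all 24 alternatives (Emilin2, Mfap2, Mfap4, Fbln5, Efemp1, Dpt, Lama2, Pcolce and Pcolce2). Pcolce, at 1.29-fold, did not reach the 1.5-fold minimum. In VdR versus R, 2 of 11 kept their call (Efemp1 and Thbs2), and in VR versus VdR 0 of 2 did. No called member changed sign. In VR versus R, 3 members were lower as reported, against 1 with only the groups compared, 0 with the methods' t-test, 0 at a minimum of 1.5-fold, 0 in the 7 tumors with low muscle markers and 1 to 3 with 1 tumor left out. In VdR versus R, 8 were higher, against 3 with the t-test and 4 in those 7 tumors, and 3 were lower, against 5 with array weights, 1 at 1.5-fold and 1 to 3 with 1 tumor left out. In VR versus VdR, 2 were higher, against 0 with the t-test, 0 in those 7 tumors and 0 to 3 with 1 tumor left out. Calls over all genes numbered 3500 in VR versus R, against 5667 with array weights, 7248 with centring on the tested genes, 2120 with the t-test and 967 at 1.5-fold. They numbered 1555 in VdR versus R, against 2595 with array weights, 493 with the t-test, 496 at 1.5-fold and 961 to 1775 with 1 tumor left out, and 570 in VR versus VdR, against 884, 30, 125 and 86 to 748, and 7 in those 7 tumors. The causes were not tested, beyond that fewer tumors were fitted in some.

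The tumor numbers were not shown to pair the samples, since the deviations of same-numbered tumors correlated at -0.15 to 0.40. With the replicate number as a block, 15 members were higher and 3 lower in VR versus R, 8 and 4 in VdR versus R, and 2 and 0 in VR versus VdR. That fit added Fbln1 (adjusted p = 0.0399), Tnxb (0.0345) and Lamb2 (0.0355) in VR versus R, and in VdR versus R it added Emilin1 (0.027) and Thbs1 (0.0417) and left Mfap4 uncalled (0.0644).

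Some differences that were not called changed sign. With centring on the tested genes, these were Emilin1 -0.057, Fn1 -0.13, Tnc -0.099, Sparc -0.038, Ecm1 -0.077 and Lamc1 -0.024 in VR versus R, and Fbln5 -0.059, Postn -0.039, Sparc -0.064, Matn2 -0.080, Ecm1 -0.015, Lama4 -0.055 and Lamb2 -0.0094 in VdR versus R. With array weights, these were Fn1 -0.044, Tnc -0.14 and Ecm1 -0.025 in VR versus R, and Fbln5 -0.023, Postn -0.048, Ecm1 -0.021 and Lama4 -0.035 in VdR versus R. With centring over all probesets, these were Fn1 -0.0043 in VR versus R. With only the 7 tumors with low muscle markers, these were Fn1 -0.047, Tnc -0.18 and Ecm1 -0.096 in VR versus R, and Postn -0.095, Ecm1 -0.10, Lama4 -0.089, Lamb1 -0.054 and Lamb2 -0.083 in VdR versus R, and Ecm1 0.0082 in VR versus VdR. With cyclic loess, these were Fbln5 -0.0094 in VdR versus R. With 1 tumor left out, differences that changed sign spanned, in VR versus R, Fn1 -0.042 to 0.032, Tnc -0.079 to 0.12, Sparcl1 -0.19 to 0.037, Ecm1 -0.042 to 0.14 and Nid1 -0.12 to 0.0032. With 1 tumor left out, differences that changed sign spanned, in VdR versus R, Fbln5 -0.027 to 0.12, Postn -0.031 to 0.14, Comp -0.072 to 0.016, Vcan -0.043 to 0.049, Cthrc1 -0.29 to 0.0076, Matn2 -0.018 to 0.10, Ecm1 -0.0057 to 0.14, Lama4 -0.00054 to 0.097 and Lamc1 -0.068 to 0.062. With 1 tumor left out, differences that changed sign spanned, in VR versus VdR, Emilin2 -0.016 to 0.19, Mfap2 -0.13 to 0.074, Ecm1 -0.090 to 0.048 and Loxl3 -0.12 to 0.0047.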
